A study of Mus musculus with 24 samples.

Results

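The Frizzled receptors are the 10 mouse genes Fzd1 to Fzd10, measured by 18 probes of the 41174 probes on a whole mouse genome oligonucleotide array. A probe was taken as a member when the array's own gene name was the current symbol of a Frizzled gene or an older name of it. The family was chosen by the differences of its signals between treated and untreated arrays of the same set, so each difference from the untreated arrays is given below as a description. Calls in those contrasts, in the counts and in the plot, describe the fit across all probes and support nothing about the family. Comparisons between treated groups are differences of those same contrasts, so their tests are not independent of the choice of the family either. The cells were 1 immortalized line of mouse embryonic fibroblasts that lacks Ku70 (gene Xrcc6), and every group, the untreated cells included, carries that deletion. The agents were the plasticizer component bisphenol A (BPA) at 150 µM and the oxidizing agent potassium bromate (KBrO3) at 20 mM. The first set of 15 arrays holds untreated cells (labelled 4 hr), KBrO3-only cells and cells co-exposed to KBrO3 + BPA, each at 4 hr and at 24 hr counted from the start of KBrO3, with 3 arrays in each of 5 groups. KBrO3 was present for 1 hr, and co-exposed cells had BPA for 1 hr before it, during it and afterwards. The second set of 9 arrays holds its own untreated cells (no time in the labels) and BPA-only cells labelled 4 and 24 hr, with 3 arrays in each of 3 groups. The methods give the BPA-only incubations as 1 hr longer than those labels. No untreated group is labelled 24 hr, so treatment and time in culture cannot be told apart in the 24 hr values. The methods describe the 3 samples of a group as biological replicates, all of them from this 1 cell line.

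Frizzled proteins are seven-transmembrane receptors at the cell surface that bind secreted Wnt proteins through a cysteine-rich domain outside the cell. With the co-receptors Lrp5 and Lrp6 they recruit Dishevelled and stabilize beta-catenin, which turns on target genes with the TCF/LEF factors, and with Ror and Ryk receptors or Vangl proteins they act in planar cell polarity and other branches without beta-catenin. The family falls into subgroups of close sequence, with Fzd1, Fzd2 and Fzd7 together, Fzd5 and Fzd8 together, Fzd3 and Fzd6 together, and Fzd4 beside Fzd9 and Fzd10. Fibroblasts both send and receive Wnt signals.

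The oligonucleotides for Fzd2 and Fzd7 are shown because these close relatives were read by probes of shared sequence. The Fzd2 probe A_51_P404077 lies at chr11:102715340-102715399 on the plus strand and the Fzd7 probe A_51_P142107 at chr1:59735681-59735740 on the plus strand, both in mouse build mm7 as the scanner files give them. No gene annotation of that build was used here, so exon and UTR positions are not stated. In the best ungapped alignment 42 of 50 bases were identical (84%), and capitals mark those bases.
Fzd2 A_51_P404077: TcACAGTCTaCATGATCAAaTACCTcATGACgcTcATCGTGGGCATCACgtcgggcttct
Fzd7 A_51_P142107: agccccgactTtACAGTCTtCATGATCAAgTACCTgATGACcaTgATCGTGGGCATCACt
Of the other leading probes in that build, Fzd9 A_51_P511015 lies at chr5:134220225-134220284 and Fzd1 A_52_P597634 at chr5:4760009-4760068, both on the minus strand. Fzd4 A_51_P361220 lies at chr7:85346032-85346091, Fzd6 A_52_P217710 at chr15:39042879-39042938 and Fzd7 A_52_P552665 at chr1:59737506-59737565, all on the plus strand. Fzd5 A_52_P224125 lies at chr1:64974350-64974409 and Fzd3 A_52_P502351 at chr14:60052728-60052787, both on the minus strand. The next closest pair of Frizzled probes of different genes, for Fzd7 and Fzd8, shared 68.8% of 48 aligned bases.

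Promoter sequence was on hand for 6 of the 10 members from RefSeq (GRCm38.p6). The 250 bases before the gene start are shown for Fzd9, whose signal was highest after KBrO3, and for Fzd5 and Fzd7, whose signals followed each other most closely of the member pairs. Capitals mark the GC box GGGCGG on either strand, which 32.7% of 32851 promoter windows of the same length hold.
Fzd9, chr5:135251048-135251297, minus strand: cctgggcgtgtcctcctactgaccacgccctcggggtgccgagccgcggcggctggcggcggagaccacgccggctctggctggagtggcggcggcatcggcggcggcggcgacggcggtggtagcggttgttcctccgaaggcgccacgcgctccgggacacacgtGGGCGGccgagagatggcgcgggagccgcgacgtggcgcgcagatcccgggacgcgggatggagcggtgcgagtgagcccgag
Fzd5, chr1:64737751-64738000, minus strand: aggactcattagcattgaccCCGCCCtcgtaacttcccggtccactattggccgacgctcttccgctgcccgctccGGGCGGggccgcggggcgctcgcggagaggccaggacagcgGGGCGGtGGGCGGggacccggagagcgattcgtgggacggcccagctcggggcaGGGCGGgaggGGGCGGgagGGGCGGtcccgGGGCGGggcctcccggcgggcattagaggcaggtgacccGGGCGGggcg
Fzd7, chr1:59481897-59482146, plus strand: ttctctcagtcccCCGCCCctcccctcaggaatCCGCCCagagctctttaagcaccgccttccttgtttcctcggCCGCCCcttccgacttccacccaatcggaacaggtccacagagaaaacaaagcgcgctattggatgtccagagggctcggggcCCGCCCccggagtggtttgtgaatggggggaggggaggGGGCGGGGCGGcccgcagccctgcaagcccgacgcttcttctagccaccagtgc
The GC box occurred 9 times in the Fzd5 window, 7 times for Fzd4, 6 times for Fzd7 with 2 of these overlapping by 1 base, once each for Fzd9 and Fzd10, and not for Fzd1. The CCAAT box CCAAT, held by 33.8% of windows, occurred 2 times for Fzd7 and once each for Fzd4 and Fzd5. The antioxidant response element core TGACNNNGC, held by 10.2% of windows, occurred once each for Fzd5 and Fzd9, and the E-box CACGTG, held by 6.02%, once for Fzd9. The TATA box TATAAA (12.4% of windows) was matched in Fzd1. The TCF/LEF core CTTTGAT (3.21% of windows), the AP-1 site TGANTCA (6.75%) and the cyclic AMP response element TGACGTCA (1.55%) had no match in these 6 windows. Both strands were searched, and a match is only a run of letters.

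Signals are given as log2 of the processed spot signal minus the array's 75th percentile, so that 0 is the 75th percentile of that array, and no probe's level is set against another probe's. The share of spots well above background was 57.7 to 68.1% on arrays of the first set and 76.4 to 79.4% on those of the second. The median residual SD over probes was 0.107 log2 for the first set against 0.340 for the second, so the BPA-only values are the less precise. Of 10 fibroblast markers 9 were well above background on all arrays of the first set and 10 on all of the second. The leukocyte marker Ptprc and the endothelial marker Pecam1 were well above background on none. In contrast, the leukocyte marker Cd68 and the endothelial marker Tek, with its probe A_52_P234087, were so on all arrays of both sets. Markers above background on every array of the first set numbered 1 of 5 epithelial, 1 of 4 endothelial, 1 of 4 leukocyte, 1 of 4 muscle and none of 2 pluripotent genes, and of the second 3, 2, 1, 3 and 1. The single Xrcc6 probe was well above background on all 24 arrays, and where it lies relative to the deleted part of the gene is not known here, so it does not check the genotype. A probe was tested if, within 1 or more groups of the set, all 3 arrays were well above background, which passed 13 Frizzled probes of 9 members in the first set and 15 probes of 10 members in the second.

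Against untreated cells, Fzd2, Fzd4 and Fzd8 had lower mean signal in all 4 treated groups of the first set, and Fzd9 was far higher at 4 hr. At 4 hr after KBrO3 alone, Fzd9 stood 4.93 log2 above untreated cells (30.5-fold) and Fzd2 lay 2.23 and 3.20 below by its 2 probes. Fzd9 was well above background on 2 of 3 untreated arrays, so its fold rests on a level near background. At 24 hr after co-exposure the median difference over the 13 tested Frizzled probes was -1.38, beside -0.07 over all probes. Fzd9 was the sole member above its untreated level by more than 1.5-fold, a direction that turned with the normexp background correction. In these bulk samples fewer cells of a type and less RNA per cell cannot be told apart. A probe is called when its adjusted p was under 0.05 and its fold beyond 1.5. Because these contrasts chose the family, the counts that follow are a description beside the share of all tested probes.

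At 4 hr after KBrO3 alone 9 of 13 Frizzled probes were called, beside 45.5% of all probes, with 4 higher (23% of all probes) and 5 lower (22.5%). At 24 hr after KBrO3 alone 8 were called beside 33.2%, with 2 higher (14.1%) and 6 lower (19.1%). At 4 hr of co-exposure 9 were called beside 54.4%, with 2 higher (29.9%) and 7 lower (24.5%). Fzd3 A_52_P502351 is 1 of these 2 higher probes, and it passed the filter solely through the co-exposed 4 hr group, in which it is called higher, so that call, like those of the same probe at 4 hr of KBrO3 and between 24 and 4 hr of KBrO3, is no support for a difference. The other is Fzd9, which was well above background on 2 of 3 untreated arrays and so also passed through treated groups alone, and its calls as higher have the same limit. At 24 hr of co-exposure 11 were called beside 39.4%, with 1 higher (15.9%) and 10 lower (23.5%). After BPA alone at 4 hr 3 of 15 probes were called beside 4.22%, with 1 higher (2.82%) and 2 lower (1.4%). The higher one, Fzd3 A_51_P190863, passed the filter solely through the BPA groups, where it is high. After BPA alone at 24 hr 3 were called beside 3.41%, with none higher (1.39%) and 3 lower (2.02%). With 1 array left out these BPA-only counts ran from 1 to 3 at 4 hr and from 1 to 5 at 24 hr, and with the slide as a fixed block or with normexp both were 0. The share of all probes called under these alternatives was not computed. The 9 arrays of the second set lie on 5 slides, so the slide block leaves little to estimate the spread from. A call lost under it cannot tell a weak difference from a weak fit.

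**Figure D1:**
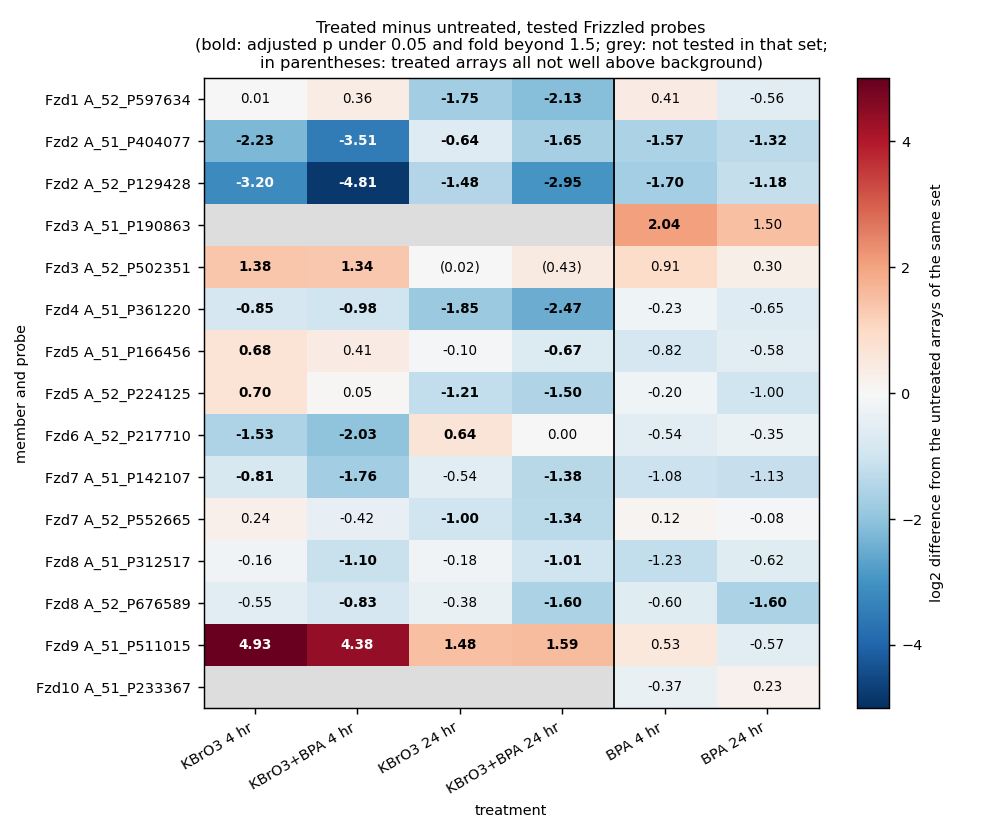
Log2 difference of each treated group from the untreated arrays of its own set for every tested Frizzled probe (rows) and treatment (columns), 3 arrays against 3, with called differences in bold. The Fzd9 row runs from 4.93 at 4 hr after KBrO3 to -0.57 at 24 hr of BPA, and both Fzd2 rows are below 0 in all 6 columns. The drawn differences of Fzd3 A_52_P502351 in the first set and A_51_P190863 in the second rest on untreated levels mostly at background.

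**Figure D2:**
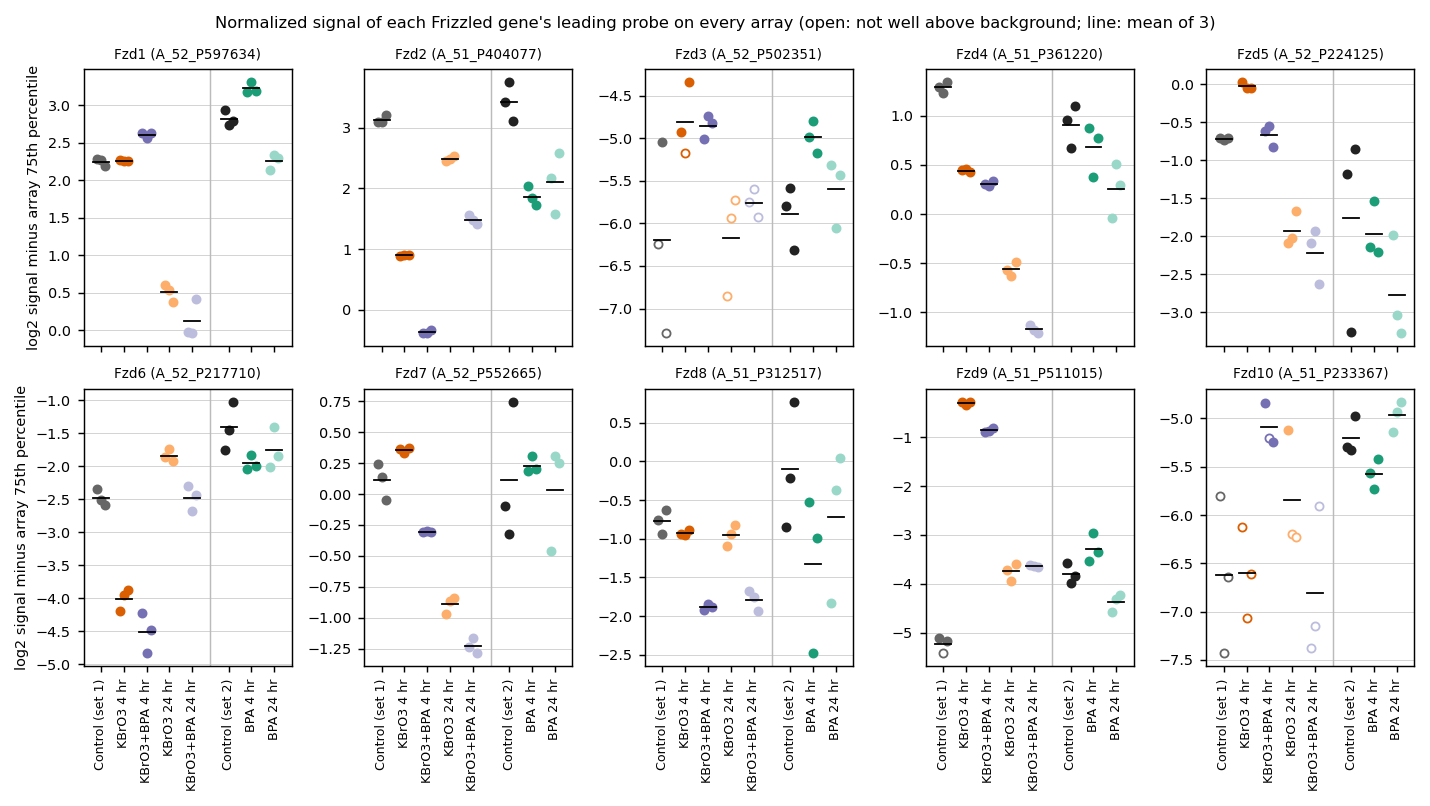
Log2 signal minus the array's 75th percentile for the leading probe of each member (the one with the highest mean over 24 arrays) on every array, by group, with a line at the mean of 3 and open points where the probe was not well above background. Axes differ between panels, and the grey line parts the 2 sets, which have their own untreated arrays.

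Fzd9, a receptor known from bone and brain development, had the widest range of group means in the family, 4.93 log2. In untreated cells of the first set its signals were -5.11, -5.41 and -5.17, the second of these not well above background. At 4 hr they were -0.28, -0.34 and -0.27 after KBrO3 alone and -0.89, -0.87 and -0.81 after co-exposure. At 24 hr they were -3.71, -3.94 and -3.59 after KBrO3 alone and -3.61, -3.64 and -3.66 after co-exposure. All 12 treated arrays lay above the 3 untreated ones, and the 4 hr arrays above the 24 hr arrays, with the 24 hr groups overlapping each other. The differences from untreated cells were 4.93 and 4.38 at 4 hr and 1.48 and 1.59 at 24 hr, and with the normexp background correction the 24 hr ones turned to -0.84 and -0.74.

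Between treated groups, Fzd9 fell from 4 to 24 hr after KBrO3 alone by 3.45 log2 (SE 0.0882, adjusted p = 8.96e-12) and after co-exposure by 2.78 (SE 0.0882, adjusted p = 3.98e-11). Co-exposed cells stood at -0.56 from KBrO3-only cells at 4 hr (95% confidence interval -0.75 to -0.36, adjusted p = 0.000231), a fold of 1.47 that stays inside the limit of 1.5. At 24 hr that difference was 0.11 (interval -0.09 to 0.30, adjusted p = 0.344). The change of the difference between the times was 0.66 (SE 0.125, adjusted p = 0.000933), and it passed both limits. It dropped under the fold limit without replicate 2 of KBrO3 24 hr (0.57).

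In the second set Fzd9 was at -3.58, -3.99 and -3.85 in untreated cells. After BPA alone it was at -3.54, -2.95 and -3.35 at 4 hr and at -4.58, -4.31 and -4.23 at 24 hr. The 3 groups did not overlap, with 4 hr highest and 24 hr lowest. From 4 to 24 hr of BPA Fzd9 fell by 1.10 (SE 0.219, adjusted p = 0.0277). That call was lost with the slide as a fixed block (adjusted p = 0.49), with the replicate number as a block (0.070) and without any single BPA array, where the adjusted p ran from 0.052 to 0.11. No slide holds both BPA times, so the slide fit compares them only by way of the untreated arrays. The loss of the call under that fit therefore says little about Fzd9.

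Fzd2, which with Wnt5a is known for signaling without beta-catenin, was lowest at 4 hr of co-exposure by both of its probes. The probe A_51_P404077 read 3.09, 3.09 and 3.21 in untreated cells, 0.88, 0.91 and 0.91 at 4 hr after KBrO3 and -0.39, -0.39 and -0.34 at 4 hr of co-exposure. The 24 hr readings were 2.46, 2.49 and 2.53 after KBrO3 and 1.56, 1.48 and 1.41 after co-exposure. No array of one group reached the range of another, and the order from high to low was untreated, KBrO3 24 hr, co-exposed 24 hr, KBrO3 4 hr and co-exposed 4 hr. The probe A_52_P129428 had the same order, from -0.18, -0.19 and -0.33 in untreated cells down to -4.64, -5.04 and -5.44 at 4 hr of co-exposure, where the last array was not well above background. Its co-exposed 24 hr arrays (-3.17, -3.25 and -3.13) overlapped its KBrO3 4 hr arrays (-3.64, -3.44 and -3.21), and its KBrO3 24 hr arrays read -1.54, -1.71 and -1.87.

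Fzd2 fell further with co-exposure than with KBrO3 alone at both times. At 4 hr the difference was -1.28 (SE 0.0475, adjusted p = 5.88e-09) with A_51_P404077, and A_52_P129428 gave a difference of -1.61 (SE 0.17, adjusted p = 1.05e-05). At 24 hr the differences were -1.01 (SE 0.0475, adjusted p = 1.27e-08) and -1.47 (SE 0.17, adjusted p = 2.15e-05), and on the slide that holds 2 arrays of each group they were -0.99 and -1.41. With the normexp correction the 4 hr difference of A_52_P129428 was -0.56, under the fold limit. Between 4 and 24 hr Fzd2 rose by 1.60 (SE 0.0475, adjusted p = 3.08e-11) and 1.72 (SE 0.17, adjusted p = 1.48e-06) after KBrO3 alone. After co-exposure it rose by 1.86 with both probes (SE 0.0475 and 0.17, adjusted p = 6.58e-12 and 6.30e-07), the second of which fell to 0.53 with normexp. The untreated level was not regained by 24 hr on any treated array of the first set.

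BPA alone also went with lower Fzd2. There, A_51_P404077 read 3.43, 3.76 and 3.11 in untreated cells, 2.04, 1.84 and 1.72 at 4 hr and 2.17, 1.58 and 2.59 at 24 hr. A_52_P129428 read 0.11, -0.23 and -0.64 in untreated cells, -1.92, -1.84 and -2.10 at 4 hr and -1.39, -1.75 and -1.15 at 24 hr. No treated array reached the untreated range with either probe. The differences were -1.57 and -1.70 at 4 hr and -1.32 and -1.18 at 24 hr, and within slides they ran from -2.12 to -1.11. Between 4 and 24 hr of BPA the probes differed by 0.25 (95% interval -0.39 to 0.88, adjusted p = 0.648) and 0.53 (interval -0.03 to 1.08, adjusted p = 0.273).

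Fzd7, the close relative of Fzd2 that is known from stem cell and embryonic Wnt signaling, gave different pictures with its 2 probes. The probe A_52_P552665 read 0.24, 0.14 and -0.05 in untreated cells, 0.37, 0.33 and 0.37 at 4 hr after KBrO3 and -0.31, -0.30 and -0.31 at 4 hr of co-exposure. Its 24 hr readings were -0.97, -0.87 and -0.84 after KBrO3 and -1.24, -1.17 and -1.28 after co-exposure. By this probe the 5 groups did not overlap and the 24 hr arrays were lowest. The probe A_51_P142107, which shares sequence with the Fzd2 probe shown above, read -1.68, -1.95 and -1.48 in untreated cells, -2.72, -2.75 and -2.06 at 4 hr after KBrO3 and -3.39, -3.46 and -3.53 at 4 hr of co-exposure. The same probe at 24 hr gave -2.37, -2.25 and -2.10 after KBrO3 and -2.90, -3.25 and -3.11 after co-exposure, so that here the co-exposed 4 hr arrays were lowest, as for Fzd2.

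As a description over arrays that share treatments, the Fzd7 probe A_51_P142107 followed the Fzd2 probe A_51_P404077 with Pearson's r of 0.857 over 15 arrays and 0.938 over the 9 arrays of the second set. Its r with the other Fzd7 probe was 0.342 and -0.157. The 2 Fzd2 probes followed each other with r of 0.976 and 0.953. The part of the shared bases in this was not tested, and the level of Fzd7 is therefore uncertain where its probes disagree.

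**Figure D3:**
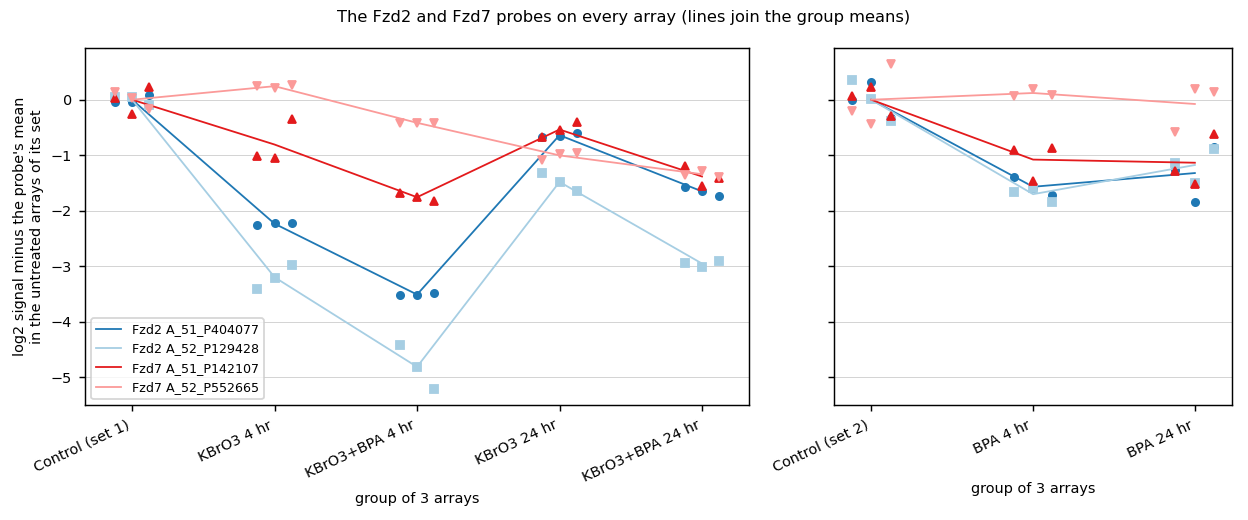
Signal of the 2 Fzd2 and 2 Fzd7 probes on every array, as the log2 difference from that probe's mean in the untreated arrays of its set, with lines joining the means of 3 arrays. The Fzd7 probe A_51_P142107 dips at 4 hr with the Fzd2 probes (-1.76 at 4 hr of co-exposure), while A_52_P552665 is lowest at 24 hr (-1.34 after co-exposure) and stays near its untreated level after BPA alone.

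At 4 hr both Fzd7 probes lay below KBrO3-only cells after co-exposure, A_52_P552665 at -0.66 (SE 0.0659, adjusted p = 7.10e-06) and A_51_P142107 at -0.95 (SE 0.177, adjusted p = 0.000752). The second call was lost with the slide as a random block (adjusted p = 0.10) and with normexp (-0.53). At 24 hr the differences were -0.34 for A_52_P552665 (SE 0.0659, adjusted p = 0.0012, under the fold limit) and -0.85 for A_51_P142107 (SE 0.177, adjusted p = 0.00197), the latter lost with normexp (adjusted p = 0.11). Between 4 and 24 hr A_52_P552665 fell by 1.25 after KBrO3 (SE 0.0659, adjusted p = 4.29e-09) and by 0.93 after co-exposure (SE 0.0659, adjusted p = 5.95e-08), the latter a fold under 1.5 when arrays were centred on their median (-0.46). The probe A_51_P142107 differed by 0.27 (95% interval -0.12 to 0.66) and 0.37 (interval -0.01 to 0.76) over the same spans, and the second passed both limits under median centring (0.83) and quantile normalization (0.77). With BPA alone A_51_P142107 was 1.08 and 1.13 below untreated cells and A_52_P552665 lay within the untreated range on all 6 BPA arrays except replicate 1 at 24 hr (-0.46, against a lowest untreated value of -0.32).

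Fzd1, the remaining member of that subgroup and a receptor of beta-catenin signaling, was lower only at 24 hr. It read 2.28, 2.27 and 2.19 in untreated cells, 2.27, 2.26 and 2.25 at 4 hr after KBrO3 and 2.63, 2.57 and 2.63 at 4 hr of co-exposure. By 24 hr the readings were 0.60, 0.54 and 0.38 after KBrO3 and -0.02, -0.04 and 0.42 after co-exposure. The 4 hr KBrO3 arrays overlapped the untreated ones, the co-exposed 4 hr arrays lay above both, and the 24 hr groups overlapped each other far below. Fzd1 fell from 4 to 24 hr by 1.75 after KBrO3 (SE 0.102, adjusted p = 9.94e-09) and by 2.49 after co-exposure (SE 0.102, adjusted p = 3.46e-10). Co-exposed and KBrO3-only cells differed by 0.35 at 4 hr (SE 0.102, adjusted p = 0.0114) and by -0.39 at 24 hr (SE 0.102, adjusted p = 0.00797), both under the fold limit. The change of that difference, -0.74 (SE 0.144, adjusted p = 0.00119), passed both limits, but was -0.43 under median centring.

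Among BPA arrays and their controls Fzd1 read 2.94, 2.73 and 2.79 in untreated cells, 3.17, 3.31 and 3.20 at 4 hr of BPA and 2.14, 2.34 and 2.29 at 24 hr. The groups did not overlap, with 4 hr above and 24 hr below the untreated arrays, at 0.41 and -0.56. From 4 to 24 hr of BPA Fzd1 fell by 0.97 (SE 0.169, adjusted p = 0.0156). This call was lost with the slide as a fixed block (adjusted p = 0.45), with the replicate number as a block (0.054), with median centring (0.070) and without any single BPA 4 hr array (0.058 to 0.080). As for Fzd9, the loss under the slide fit says little about Fzd1.

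Fzd4, the receptor of Norrin in retinal blood vessels, declined with time and further with co-exposure. It read 1.30, 1.23 and 1.34 in untreated cells, 0.44, 0.46 and 0.42 at 4 hr after KBrO3 and 0.30, 0.28 and 0.34 at 4 hr of co-exposure. Later, at 24 hr, it read -0.57, -0.63 and -0.49 after KBrO3 and -1.13, -1.18 and -1.21 after co-exposure. The 5 groups did not overlap, and the untreated arrays were highest. Fzd4 fell from 4 to 24 hr by 1.01 after KBrO3 (SE 0.0455, adjusted p = 1.04e-09) and by 1.48 after co-exposure (SE 0.0455, adjusted p = 3.09e-11). The co-exposure difference was -0.14 at 4 hr (SE 0.0455, adjusted p = 0.0234, under the fold limit) and -0.61 at 24 hr (SE 0.0455, adjusted p = 5.50e-07), a fold of 1.53. The 24 hr call sits at the fold limit and was lost with median centring (-0.44), normexp (-0.53) and without replicate 3 of KBrO3 24 hr (-0.57), and within 1 slide the difference was -0.59. For the BPA set Fzd4 read 0.96, 0.67 and 1.10 in untreated cells, 0.88, 0.38 and 0.78 at 4 hr of BPA and -0.04, 0.51 and 0.29 at 24 hr, so that the 24 hr arrays lay below the untreated ones.

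Fzd6, known for hair patterning and planar cell polarity, was low at 4 hr and back at or above its untreated level at 24 hr. It read -2.35, -2.50 and -2.58 in untreated cells, -4.20, -3.94 and -3.88 at 4 hr after KBrO3 and -4.22, -4.83 and -4.48 at 4 hr of co-exposure. The 24 hr values were -1.85, -1.74 and -1.92 after KBrO3 and -2.30, -2.68 and -2.44 after co-exposure. The 4 hr groups lay below all others, the co-exposed 24 hr arrays overlapped the untreated ones, and the KBrO3 24 hr arrays lay above, by 0.64. With normexp these 24 hr differences from untreated cells were -0.19 for KBrO3 and -0.67 for co-exposure. Fzd6 rose from 4 to 24 hr by 2.17 after KBrO3 (SE 0.147, adjusted p = 4.23e-08) and by 2.03 after co-exposure (SE 0.147, adjusted p = 6.75e-08). The co-exposure difference was -0.50 at 4 hr (SE 0.147, adjusted p = 0.0116, under the fold limit) and -0.64 at 24 hr (SE 0.147, adjusted p = 0.00359). The 24 hr call was lost with median centring (-0.47), quantile normalization (-0.56), normexp (-0.48) and without replicate 2 of co-exposed 24 hr (-0.53). For the BPA set Fzd6 read -1.76, -1.45 and -1.02 in untreated cells, -2.04, -1.82 and -2.0 at 4 hr of BPA and -2.01, -1.41 and -1.84 at 24 hr.

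Fzd3, which pairs with Fzd6 in planar cell polarity and guides growing axons, was near background in the first set, where 2 of its 3 probes were not tested. These, A_51_P190863 and A_52_P168231, were well above background on none of the 15 arrays. The probe A_52_P502351, listed under an older name of Fzd3, was well above background on 1 of 3 untreated arrays (-5.05), on 2 of 3 at 4 hr after KBrO3 (-4.92 and -4.34) and on all 3 at 4 hr of co-exposure (-5.0, -4.74 and -4.82). It was not well above background on any of the 6 arrays at 24 hr. It entered the analysis solely through the co-exposed 4 hr group and its untreated level is mostly at background, so no size or test is given for it in the text. Its direction against untreated cells turned with normexp. On the second set's arrays A_51_P190863 read -8.19, -7.16 and -8.11 in untreated cells, only the middle one well above background, -6.14, -5.48 and -5.71 at 4 hr of BPA and -5.78, -6.33 and -6.85 at 24 hr. The probe entered the analysis solely through the BPA groups and the untreated level is mostly at background, so no size is given for that difference in the text. The probe A_52_P502351, well above background on all 9 arrays there, read -5.79, -5.58 and -6.31 in untreated cells, -4.99, -4.80 and -5.17 at 4 hr and -5.31, -6.05 and -5.43 at 24 hr.

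Fzd5, known for its part in the vessels of the yolk sac and placenta, was raised at 4 hr after KBrO3 with both of its tested probes, and at 24 hr after KBrO3 it lay below untreated cells with 1 of them. Its leading probe A_52_P224125, listed under an older name of Fzd5, read -0.71, -0.74 and -0.71 in untreated cells, 0.03, -0.05 and -0.05 at 4 hr after KBrO3 and -0.62, -0.55 and -0.82 at 4 hr of co-exposure. At 24 hr it read -2.09, -2.03 and -1.67 after KBrO3 and -2.09, -1.93 and -2.63 after co-exposure. The probe A_51_P166456 read -2.51, -2.58 and -2.44 in untreated cells, -1.74, -1.90 and -1.85 at 4 hr after KBrO3, -2.18, -2.02 and -2.11 at 4 hr of co-exposure, -2.67, -2.60 and -2.57 at 24 hr after KBrO3 and -3.20, -2.99 and -3.36 at 24 hr of co-exposure. KBrO3 4 hr was the highest group with both probes and co-exposed 24 hr the lowest, and the 4 hr differences from untreated cells were 0.70 and 0.68, the second of which turned to -0.12 with normexp. Co-exposed minus KBrO3-only cells at 4 hr, A_52_P224125 gave -0.64 (SE 0.157, adjusted p = 0.00437), a call lost with normexp (-0.58) and without replicate 3 of co-exposed 4 hr (-0.56), and A_51_P166456 differed by -0.28 (SE 0.0839, adjusted p = 0.0145, under the fold limit).

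From 4 to 24 hr Fzd5 fell after KBrO3 by 1.91 with A_52_P224125 (SE 0.157, adjusted p = 2.70e-07) and by 0.78 with A_51_P166456 (SE 0.0839, adjusted p = 3.04e-06). After co-exposure it fell by 1.55 (SE 0.157, adjusted p = 1.67e-06) and 1.08 (SE 0.0839, adjusted p = 1.38e-07). At 24 hr the co-exposure differences were -0.29 (95% interval -0.63 to 0.06, adjusted p = 0.161) and -0.57 (interval -0.75 to -0.39, adjusted p = 0.000152, under the fold limit). In the second set the probes disagreed, with r of -0.022 over 9 arrays against 0.907 over the 15 arrays of the first set, and A_52_P224125 spread from -3.26 to -0.85 among untreated arrays alone. The third Fzd5 probe, A_52_P464659, is placed on the opposite strand and was well above background on none of the 15 arrays of the first set.

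Fzd8, the closest relative of Fzd5, was lower in co-exposed cells than in all other groups. Its leading probe A_51_P312517 read -0.75, -0.94 and -0.62 in untreated cells, -0.94, -0.95 and -0.89 at 4 hr after KBrO3 and -1.91, -1.84 and -1.88 at 4 hr of co-exposure. At 24 hr it read -1.09, -0.94 and -0.82 after KBrO3 and -1.67, -1.75 and -1.94 after co-exposure. The untreated and KBrO3-only groups overlapped, and all 6 co-exposed arrays lay below them. Co-exposed and KBrO3-only cells differed by -0.95 at 4 hr (SE 0.0913, adjusted p = 5.38e-06) and by -0.84 at 24 hr (SE 0.0913, adjusted p = 1.37e-05), and within 1 slide by -0.83 at 24 hr. The change of this difference with time was 0.11 (95% interval -0.17 to 0.40, adjusted p = 0.480).

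The other Fzd8 probe, A_52_P676589, read -2.30, -2.33 and -2.63 in untreated cells, -2.93, -2.95 and -3.04 at 4 hr after KBrO3 and -3.20, -3.36 and -3.19 at 4 hr of co-exposure. At 24 hr it read -2.70, -2.76 and -2.96 after KBrO3 and -4.43, -3.63 and -4.00 after co-exposure, the lowest group. By this probe co-exposure differed by -0.28 at 4 hr (95% interval -0.63 to 0.08, adjusted p = 0.165) and by -1.21 at 24 hr (SE 0.163, adjusted p = 7.33e-05, and 0.18 with normexp), and the change of the difference was -0.93 (SE 0.230, adjusted p = 0.00492), which was lost with the slide as a random block (adjusted p = 0.14). From 4 to 24 hr of co-exposure the signal fell by 0.77 (SE 0.163, adjusted p = 0.000887), a call lost with the slide as a fixed block (-0.62, adjusted p = 0.12), under median centring (-0.31), quantile normalization (-0.32) and normexp (-0.58), and without replicate 1 of co-exposed 24 hr (-0.56). So the 2 Fzd8 probes placed the loss at both times or mainly at 24 hr. In the second set A_52_P676589 read -1.29, -1.20 and -1.64 in untreated cells, -1.98, -2.06 and -1.88 at 4 hr of BPA and -3.28, -3.11 and -2.51 at 24 hr, 3 groups that did not overlap. The difference at 24 hr of BPA was -1.60, while A_51_P312517 spread from -0.85 to 0.77 among the untreated arrays of that set.

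Fzd10, a receptor of limb and neural development, was at or near background in the first set. The probe A_51_P233367 was well above background on 3 of 15 arrays of the first set (replicates 1 and 3 of co-exposed 4 hr and replicate 1 of KBrO3 24 hr), and A_52_P203560 on none of the 24 arrays. In the second set A_51_P233367 was well above background on all 9 arrays and read -5.29, -5.32 and -4.98 in untreated cells, -5.57, -5.73 and -5.42 at 4 hr of BPA and -5.14, -4.94 and -4.83 at 24 hr. The difference of 0.61 between 24 and 4 hr did not pass the test (SE 0.192, adjusted p = 0.121).

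The comparison of co-exposed with KBrO3-only cells asks what BPA added to the KBrO3 response, and by it every called Frizzled probe was lower. At 4 hr 6 of 13 probes were called, beside 20.1% of all probes, with none higher (11.9% of all probes) and 6 lower (8.21%), for Fzd2, Fzd5, Fzd7 and Fzd8. At 24 hr 7 of 13 were called, beside 13.6%, with none higher (5.35%) and 7 lower (8.22%), for Fzd2, Fzd4, Fzd6, Fzd7 and Fzd8. Over the 13 Frizzled probes the median differences were -0.56 and -0.61, beside 0.02 and -0.04 over all probes. With normexp 3 and 3 probes were called, and with a Bonferroni limit of 0.01 2 and 2. The share of all probes called under those settings was not computed. Both comparisons use treated arrays that also entered the choice of the family. At 4 hr no slide holds both groups, so the slide and the co-exposure cannot be told apart, and at 24 hr all 7 called probes kept their sign on the slide shared by 2 arrays of each group.

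**Figure D4:**
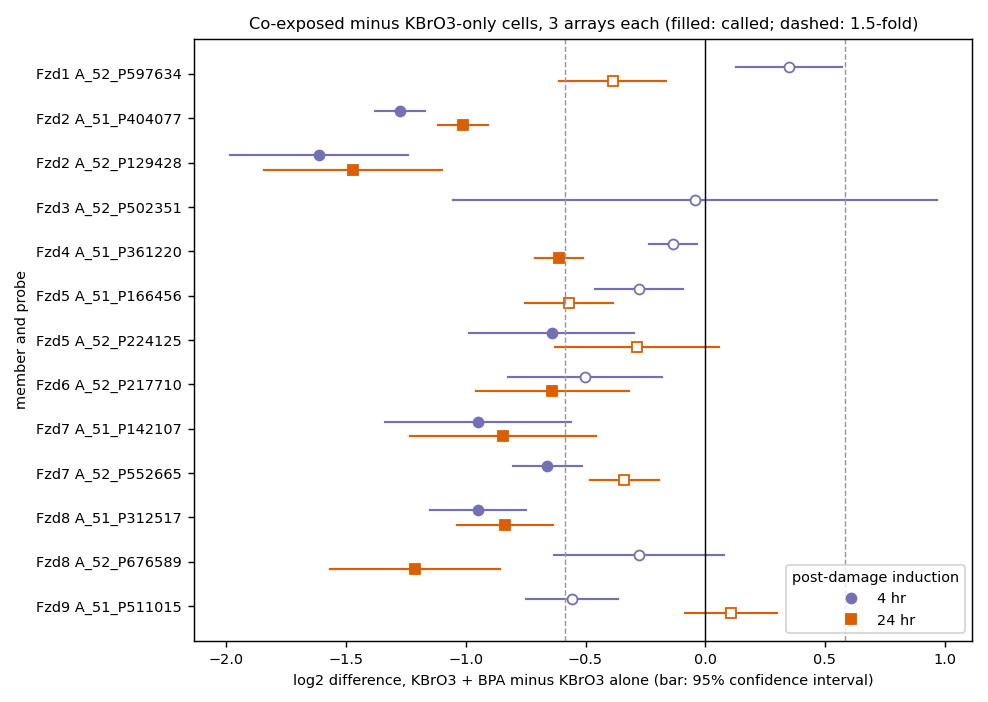
Log2 difference of co-exposed from KBrO3-only cells for the 13 tested Frizzled probes at 4 hr (circles) and 24 hr (squares), with 95% confidence intervals, filled where called, and dashed lines at 1.5-fold (the 24 hr value of Fzd3 is left out, as no array was well above background). Filled points lie to the left of the lower dashed line, and Fzd2 is the farthest left at both times.

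Over time, 10 of 13 probes were called between 24 and 4 hr after KBrO3 alone, beside 47.8% of all probes, with 3 higher (19.9%) and 7 lower (27.9%), Fzd3 among the lower ones with the limit given above. After co-exposure 10 were called beside 55.6%, with 3 higher (20.6%) and 7 lower (35%). The 3 higher probes were those of Fzd2 and Fzd6 in both comparisons. No slide holds both times of either treatment, so for KBrO3 alone the slide and the time cannot be told apart, and for co-exposure a slide term can be fitted only by way of the KBrO3 24 hr arrays on the slides between. The change of the co-exposure difference from 4 to 24 hr was called for 3 of 13 probes (23.1%), beside 27.3% of all probes and so no more often than in general, with 1 higher (11%, Fzd9) and 2 lower (16.3%, Fzd1 and Fzd8). Between 24 and 4 hr of BPA alone 2 of 15 probes were called, beside 3.79%, with none higher (1%) and 2 lower (2.79%, Fzd1 and Fzd9). All of these comparisons use treated arrays that also entered the choice of the family.

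Among themselves the leading probes of the 9 members tested in the first set fell into patterns, described here by Pearson's r over the 15 arrays that share treatments, slides and scaling. Fzd5 and Fzd7 followed each other most closely (0.951), with Fzd1 and Fzd4 near them (Fzd1 with Fzd5 0.890, Fzd4 with Fzd7 0.889). For Fzd7 this is the pattern of A_52_P552665 alone, with which the other Fzd7 probe had r of 0.342. Fzd2 and Fzd6, both low at 4 hr and higher at 24 hr, had r of 0.861. Fzd9 ran opposite to Fzd2 (-0.873) and Fzd6 (-0.855). Among all other genes the probes most like Fzd9 were those of Trib1 (0.997), Lonrf3 (0.997) and Abt1 (0.997), most like Fzd2 those of Mllt3 (0.997), Plekhg2 (0.997) and Cavin2 (0.994), and most like Fzd6 those of Spc25 (0.991), Mastl (0.988) and Cit (0.988).

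The rest of the Wnt pathway was read from 9 gene lists, tested over all probes of the set. At 4 hr of co-exposure 28 of 121 pathway probes rose against untreated cells and 44 fell, which is 59.5% called beside 54.4% of all probes. At 24 hr 9 rose and 64 fell, 60.3% beside 39.4%. At 4 hr after KBrO3 alone 31 rose and 36 fell, 55.4% beside 45.5%, and at 24 hr 12 rose and 50 fell, 51.2% beside 33.2%. In these contrasts with untreated cells, no slide of the first set links the untreated arrays to the co-exposed or the KBrO3 24 hr arrays, so the slide and the treatment cannot be told apart, for the Frizzled values too. The lists' median difference was -0.74 at 24 hr of co-exposure and -0.45 at 24 hr of KBrO3, beside -0.07 and -0.02 over all probes. Co-exposed against KBrO3-only cells, 8 probes rose and 23 fell at 4 hr (25.6% called beside 20.1%), and 3 rose and 34 fell at 24 hr (30.6% beside 13.6%). The called counts at both times fell by more than 1.5-fold with normexp and with a Bonferroni limit of 0.01. With BPA alone 8 of 142 rose and 1 fell at 4 hr (6.34% beside 4.22%), and 4 rose and 11 fell at 24 hr (10.6% beside 3.41%). Of the pathway probes 9 and 15 were thus called at 4 and 24 hr of BPA, and both counts were 0 with the slide as a fixed block, with normexp and with a Bonferroni limit of 0.01. With 1 array left out they ran from 2 to 8 and from 9 to 17, moving by more than 1.5-fold without any of the BPA 4 hr arrays (2 to 3) or untreated replicate 2 (4) at 4 hr, and without BPA replicate 2 (9) at 24 hr. Fitted on the arrays of the compared groups alone, 3 were called at 24 hr. For each list below, the shares of all probes to read its counts against are 29.9% higher and 24.5% lower at 4 hr of co-exposure, and 15.9% higher and 23.5% lower at 24 hr.

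**Figure D5:**
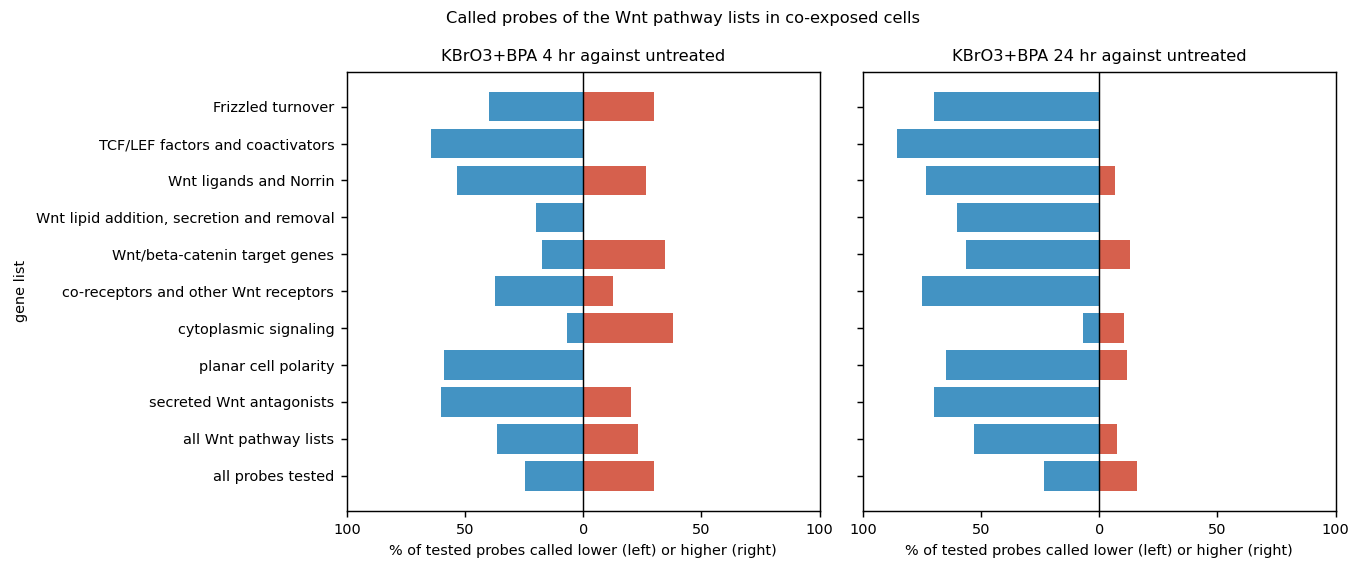
Share of the tested probes of each Wnt pathway list that were called lower (left) or higher (right) against untreated cells at 4 and 24 hr of co-exposure, over 5 to 29 probes a list, with all 121 pathway probes and all tested probes at the foot. At 24 hr the bars reach farther left than at 4 hr for most lists, and the list of cytoplasmic signaling has few called probes at that time.

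Among the ligands, 4 of 15 probes rose and 8 fell at 4 hr of co-exposure, and 1 rose and 11 fell at 24 hr. The share that rose at 4 hr is near the 29.9% of all probes. Wnt11, a ligand of planar cell polarity, rose by 2.72 at 4 hr (SE 0.145, adjusted p = 3.25e-09), and Wnt9a by 1.15 at 24 hr (SE 0.114, adjusted p = 1.87e-06). Wnt5a, a ligand of Fzd2, fell by 1.46 at 4 hr (SE 0.073, adjusted p = 1.79e-09) and by 0.73 at 24 hr (SE 0.073, adjusted p = 2.09e-06). Its co-exposure difference was -0.33 at 4 hr, under the fold limit (adjusted p = 0.00242), and 0.11 at 24 hr (adjusted p = 0.257). Of 5 probes for Wnt lipid addition, secretion and removal, 3 fell at 24 hr of co-exposure, among them 1 of 2 for Notum, which removes the lipid from Wnt proteins, by 1.60 (SE 0.0956, adjusted p = 1.73e-08). Porcn, which adds it, fell by 0.92 at 4 hr (SE 0.0764, adjusted p = 2.28e-07) and at 24 hr was higher in co-exposed than KBrO3-only cells by 0.74 (SE 0.0764, adjusted p = 8.30e-06).

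Among the co-receptors and other Wnt receptors, 1 of 8 probes rose and 3 fell at 4 hr of co-exposure, 50% called beside 54.4% of all probes, and 6 fell at 24 hr, 75% beside 39.4%. Lrp5 read 0.73 ± 0.05 (SD, n = 3) in untreated cells, 0.68 ± 0.01 at 4 hr after KBrO3 and -0.44 ± 0.12 at 4 hr of co-exposure, so that co-exposed minus KBrO3-only was -1.12 (SE 0.131, adjusted p = 2.41e-05). At 24 hr it read -0.09 ± 0.21 after KBrO3 and -0.19 ± 0.29 after co-exposure, a difference of -0.11 (adjusted p = 0.538). The Lrp6 probe A_52_P453684 fell by 1.31 at 4 hr of co-exposure (SE 0.119, adjusted p = 5.54e-07), while A_51_P169401 differed by -0.36 (SE 0.0574, adjusted p = 0.000103), under the fold limit. Of the secreted antagonists, 2 of 10 probes rose and 6 fell at 4 hr of co-exposure, and 7 fell at 24 hr. Dkk2, which binds Lrp5 and Lrp6, fell by 3.54 at 4 hr (SE 0.0445, adjusted p = 2.42e-14), and Sfrp1, which binds Wnt proteins through a Frizzled-like domain, was at least 10.9-fold lower at 24 hr (adjusted p = 3.88e-14), where it was not well above background with the probe A_52_P564706. The other Sfrp1 probe, A_51_P352296, was well above background on all 3 of those arrays, at -2.33 ± 0.15 against 2.48 ± 0.08 in untreated cells. Sfrp4 was well above background on all 3 arrays at 4 hr of KBrO3 and of co-exposure and on none of the untreated or 24 hr arrays, so it passed the filter solely through the groups where it is called higher and no size or test is given for it.

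Proteins that remove Frizzled receptors from the cell surface, or the R-spondins and Lgr receptors that hold this back, gave 3 probes of 10 that rose and 4 that fell at 4 hr of co-exposure, and 7 that fell at 24 hr. The ligases Znrf3 and Rnf43 moved apart at 4 hr, Znrf3 rising by 2.23 (SE 0.211, adjusted p = 8.28e-07) and Rnf43 falling by 3.18 (SE 0.0594, adjusted p = 3.96e-13). Rspo2 fell by 2.94 at 24 hr of co-exposure (SE 0.147, adjusted p = 3.43e-09) and by 2.18 against KBrO3-only cells (SE 0.147, adjusted p = 2.43e-07). Inside the cell, 11 of 29 probes for cytoplasmic signaling rose and 2 fell at 4 hr of co-exposure (44.8% called beside 54.4% of all probes), and 3 rose and 2 fell at 24 hr (17.2% beside 39.4%). The kinase gene Csnk1d rose by 1.74 at 4 hr with its probe A_51_P136277 (SE 0.0635, adjusted p = 9.84e-11). Of planar cell polarity probes, none of 17 rose and 10 fell at 4 hr, and 2 rose and 11 fell at 24 hr, with Vangl2 A_52_P496775 at -2.04 at 4 hr (SE 0.108, adjusted p = 3.20e-09) and Prickle1 A_51_P385370 at -2.59 at 24 hr (SE 0.0435, adjusted p = 2.76e-13). At these times A_52_P496775 was well above background on 2 of 3 co-exposed arrays and A_51_P385370 on all 3. The other Prickle1 probe was called lower too, at -2.26, although in the co-exposed group just 1 array of 3 measured it above background. The Vangl2 probe A_52_P496772 passed the filter solely through the untreated group, where it is high, so its calls as lower are no support for a difference. The remaining Vangl2 probes, A_51_P249777 and A_51_P472608, were well above background on no array of the first set and were not tested there.

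Among TCF/LEF factors and coactivators, none of 14 probes rose and 9 fell at 4 hr of co-exposure, and 12 fell at 24 hr. At 4 hr after KBrO3 alone 4 of the 14 rose and 6 fell, beside 23% higher and 22.5% lower of all probes. The share that rose is near that of all probes. Both tested Lef1 probes were among the higher ones, A_51_P420400 at 1.32 and A_51_P501145 at 1.2 from untreated cells. At 4 hr of co-exposure these 2 probes were not called, at 0.24 and 0.09. Lef1, with the probe A_51_P501145, was at least 5.70-fold lower at 24 hr of co-exposure (adjusted p = 3.67e-08), where it was not well above background, and Bcl9, a coactivator, with its probe A_52_P89477, fell by 2.54 at 4 hr (SE 0.149, adjusted p = 8.12e-09). Of the probes for Wnt/beta-catenin target genes, 15 of 23 rose and 4 fell at 4 hr after KBrO3 alone (82.6% called beside 45.5% of all probes). At 4 hr of co-exposure 8 rose and 4 fell, and 52.2% called is about the 54.4% of all probes. At 24 hr of co-exposure 3 rose and 13 fell (69.6% beside 39.4%). Axin2, a target gene and inhibitor of the pathway, read -3.50 ± 0.18 in untreated cells and -5.10 ± 0.14 at 4 hr after KBrO3. It was well above background on 3 of 3 untreated arrays, on 1 of 3 at 4 hr and 2 of 3 at 24 hr after KBrO3, and on none of the 6 co-exposed arrays. It thus passed the filter in the first set solely through the untreated group, where it is high, so its calls as lower there are no support for a difference and no size or test is given for them. BPA alone for 4 hr left Axin2 at -0.04 from untreated cells (adjusted p = 0.938). The value for 24 hr of BPA was -0.27 (adjusted p = 0.499). Other target genes rose, Cd44 by 1.79 at 4 hr of co-exposure with its probe A_52_P229536 (SE 0.0482, adjusted p = 7.49e-12) and Myc by 0.90 at 24 hr with A_52_P108346 (SE 0.0647, adjusted p = 9.43e-08). The other Myc probes gave 0.83, which was called, and 0.33, under the fold limit.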

How the data were processed

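RNA of 24 samples was hybridized to 1-colour Agilent 4 x 44K mouse arrays in 2 sets. The authors deposited scanner files of Agilent Feature Extraction, whose intensity values are the processed signal after the scanner's background subtraction. Per the file headers the versions were 9.5.3.1 for the first set (mm7 grid) and 12.0.0.7 for the second, and the submitters' processing notes name 12.0. The series value table held the same signals (1080432 of 1080432 values equal within a relative 1e-06) and was not used otherwise.

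Here log2 of the signal was centred on each array's 75th percentile over 43379 spots that are no controls, outlier spots were left out and spots of 1 probe averaged. Gene names of the array design were updated to RefSeq, which 32719 of 41174 probes matched. limma 3.58.1 in R 4.3.3 (lmFit, eBayes, two-sided) was fitted in each set over all tested probes (27294 and 31791), with Benjamini-Hochberg adjustment. A call needed an adjusted p under 0.05 and a fold beyond 1.5. Where no array of a group was well above background a bound ("at least") is given, from the lowest signal among probes well above background. The number of arrays limits the precision. Scripts were tested on simulated data.

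The members and lists were chosen with earlier results of these data known. Every member probe is named, with the member's brightest probe leading; from each list the called probes of largest rise and fall in the co-exposure comparisons could be named, and Axin2, Wnt5a, Lrp5 and Lrp6 whatever their values. Alternatives were other centring, quantile normalization, normexp, other filters and call limits, slide and replicate blocks, and each array left out. For normexp the second set gave the median spot signal in place of the mean. Same-numbered samples did not deviate together (mean correlation -0.029 and 0.0020), so the numbers were not taken as pairs.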

Additional observations from a re-analysis of the deposited data

Results flagged for a closer look

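For 3 Frizzled probes of the first set the difference between co-exposed and KBrO3-only cells changed between 4 and 24 hr by a test of that change itself. The change was 0.66 for Fzd9 (SE 0.125, limma adjusted p = 0.000933), -0.74 for Fzd1 (SE 0.144, adjusted p = 0.00119) and -0.93 for the Fzd8 probe A_52_P676589 (SE 0.230, adjusted p = 0.00492). The 3 are 23.1% of 13 probes, beside 27.3% of all tested probes. The treated arrays of this test also entered the choice of the family. Each call ended under an alternative, Fzd9 without replicate 2 of KBrO3 24 hr (0.57), Fzd1 with median centring (-0.43) and Fzd8 with the slide as a random block (adjusted p = 0.14), and with normexp none of the 3 was called. The other Fzd8 probe had a change of 0.11. No Frizzled group of 3 arrays is large enough to look for a single array that stands apart.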

How the results depend on the processing

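Of the Frizzled differences, 6 that were called changed direction, and 3 that were not called became called in the opposite direction, each of them with normexp. Changes of direction in differences called in neither setting were not counted. Normexp moved the median of all probes against untreated cells by -0.45 to -0.52 in the first set. With normexp the difference from untreated cells became -0.84, -1.64, -0.87 and -1.40 for the Fzd3 probe A_52_P502351 (KBrO3 4 and 24 hr, co-exposed 4 and 24 hr), -0.12 for the Fzd5 probe A_51_P166456 (KBrO3 4 hr), -0.19 and -0.67 for Fzd6 (KBrO3 and co-exposed 24 hr) and -0.84 and -0.74 for Fzd9 (KBrO3 and co-exposed 24 hr). The cause was not tested. Centring on the median moved the median of all probes by up to 0.46 (co-exposure 24 minus 4 hr). Counts of called Frizzled probes that moved by over 1.5 times follow, each beside the main count in brackets. The share of all probes called was computed for the main setting alone. These counts and the Wnt counts below therefore have no such share beside them. With normexp they were 3 for co-exposure minus KBrO3 at 4 hr (6) and 3 at 24 hr (7), 0 for the change of that difference (3), and 0 for BPA 4 hr (3), BPA 24 hr (3) and BPA 24 minus 4 hr (2). With a Bonferroni limit of 0.01 they were 5 for KBrO3 4 hr (9), 5 for KBrO3 24 hr (8), 7 for co-exposure 24 hr (11), 2 and 2 for co-exposure minus KBrO3 (6 and 7) and 0 for the change and each BPA comparison. Without a fold limit they were 11 for co-exposure minus KBrO3 at 4 hr and 6 for the change, and 6 for the change without the filter on dim probes. BPA 24 hr gave 0 with the compared arrays alone, 1 with median centring and 1 without the filter, and BPA 24 minus 4 hr gave 0 with median centring. With the slide as a fixed block all 3 BPA comparisons gave 0.

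For the Wnt pathway probes, normexp gave 8 for co-exposure minus KBrO3 at 4 hr (31), 12 at 24 hr (37), 44 for KBrO3 24 minus 4 hr (69), 44 for co-exposure 24 minus 4 hr (77), 14 for the change (42) and 0 for the 3 BPA comparisons (9, 15 and 14). The Bonferroni limit gave 41 for KBrO3 4 hr (67), 36 for KBrO3 24 hr (62), 46 for co-exposure 24 hr (73), 10 and 15 for co-exposure minus KBrO3, 37 and 44 for 24 minus 4 hr, 9 for the change and 0 for BPA. Without a fold limit there were 75 and 64 for co-exposure minus KBrO3 and 68 for the change. Probes well above background on all arrays gave 20 for co-exposure minus KBrO3 at 4 hr. BPA 24 hr gave 3 with the compared arrays alone, and the slide as a fixed block gave 0 for each BPA comparison.

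Same-numbered samples share only a number. The replicate block gave 1 Frizzled probe for BPA 24 hr and 0 for BPA 24 minus 4 hr, and 9 Wnt probes for the latter. The mean correlation of same-numbered deviations was -0.029 (from -0.211 to 0.105) in the first set and 0.0020 (from -0.384 to 0.648) in the second.

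With each array left out, Frizzled counts ran from 8 to 9 for KBrO3 4 hr, KBrO3 24 hr and co-exposure 4 hr, 10 to 12 for co-exposure 24 hr, 5 to 7 and 6 to 8 for co-exposure minus KBrO3, 9 to 10 for both 24 minus 4 hr comparisons, 2 to 3 for the change, 1 to 3 and 1 to 5 for BPA, and 0 to 2 for BPA 24 minus 4 hr. Wnt counts ran from 64 to 65, 60 to 68, 69 to 74 and 74 to 76 against untreated cells, 29 to 33 and 35 to 44 for co-exposure minus KBrO3, 66 to 73 and 74 to 78 for 24 minus 4 hr, 39 to 45 for the change, and 2 to 8, 9 to 17 and 3 to 13 for the BPA comparisons.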
